A study of Mus musculus with 2 samples.

Results

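Cytokine-expressing activated CD8 T cells were followed in 2 single-cell libraries of infected mice, 1 per Ptpn22 genotype. A droplet barcode was taken as a member when it carried at least 1 transcript molecule (UMI) each of Cd3e, a chain of the T cell receptor complex, and Cd8b1, the CD8 beta chain, together with at least 3 UMIs summed over Xcl1, Ifng and Tnfrsf9. Barcodes with any Cd79a or Csf1r, more than 1 Lyz2 or 5 or more Mzb1 UMIs were left out, since these genes mark B cells, macrophages, myeloid cells and plasma cells. The rule selected 362 of 23397 barcodes, 182 of 14821 from PEP-WT and 180 of 8576 from PEP-619WW. They were described against the 1150 other barcodes that passed the same Cd3e, Cd8b1 and exclusion criteria, 748 from PEP-WT and 402 from PEP-619WW. Members were therefore chosen by measured values, and what follows describes them without a test.

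For each genotype 2 sets of counts were deposited under the same labels, and the pair described here, chosen with earlier results known, holds 14821 PEP-WT and 8576 PEP-619WW barcodes. The other pair holds 9539 and 11029 barcodes. The methods give the cell numbers of that other pair, not of the pair described here, and neither labels nor methods tell how the pairs relate. The design that follows is the one stated for both samples, and whether it holds for the pair described here was not tested. The mice were C57BL/6 of 6 to 12 weeks that had received 1000000 pfu of lymphocytic choriomeningitis virus clone 13 (LCMV-cl13) intravenously and were sampled on day 8. PEP-WT mice carried the reference Ptpn22 alleles, and PEP-619WW mice were homozygous for a CRISPR/Cas9 allele that replaces arginine with tryptophan at position 619 of PEP, the tyrosine phosphatase encoded by Ptpn22. For each genotype the splenocytes of 4 to 5 mice were combined, and live CD45+ cells were sorted from the pool and loaded, so animals cannot be separated, there was no uninfected library, and the genotype difference cannot be told apart from a difference between libraries. The study's methods describe spleen, whereas the labels give liver, Jurkat and tumor-infiltrating cells, and the members carried mouse T cell transcripts.

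CD8 T cells recognize viral peptides on infected cells and answer with cytotoxic granules and secreted cytokines. Engagement of the T cell receptor induces transcripts within hours, among them Ifng (interferon gamma), Xcl1 (a chemokine that attracts cross-presenting dendritic cells), Ccl3 and Ccl4 (inflammatory chemokines) and Tnfrsf9 (the costimulatory receptor 4-1BB). In chronic LCMV infection responding CD8 T cells acquire inhibitory receptors, and a subset that keeps the transcription factor TCF1, encoded by Tcf7, sustains the response.

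The members had the T cell and CD8 transcripts of the label they were given, while activation genes were mixed, as given below. In PEP-WT 182 of 182 members had Cd3d, and in PEP-619WW 179 of 180 did, and Cd8a, the CD8 alpha chain, was present in 170 and 168. Ccl3, the marker of the label that the rule did not use, was found in 104 PEP-WT barcodes (57.1%) and 109 PEP-619WW barcodes (60.6%), but Xcl1 was found in only 60 (33.0%) and 22 (12.2%). Members were deeper than the others, with a median of 8486 UMIs in PEP-WT against 4011.5, and of 10183 in PEP-619WW against 6180, which a fixed UMI count favors. Their median mitochondrial share was 2.55% in PEP-WT and 3.25% in PEP-619WW. The exclusions had removed 509 of 1439 Cd3e Cd8b1 barcodes in PEP-WT and 371 of 953 in PEP-619WW, of which 157 and 127 reached 3 UMIs. The libraries shared 39 barcode sequences, of which 1 belonged to a PEP-WT member.

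Summed markers of other cell types were lower in members than in the others for B cells, myeloid and red cells, and higher for natural killer, CD4 and gamma delta T cells. Natural killer cell markers summed to 631 UMIs per 1000000 UMIs (CPM) in PEP-WT members against 451 in the others. In PEP-619WW they summed to 593 against 471 CPM, and 11 and 8 of 13 markers were detected in members. The defining gene Ncr1 was at 0 in PEP-619WW members, but Klrb1c, also a natural killer gene, was detected there. Members with neither an Ncr1 nor a Klrb1c UMI numbered 178 of 182 in PEP-WT and 161 of 180 in PEP-619WW. B and plasma cell markers summed to 760.4 against 1281 CPM in PEP-WT and 1093 against 1882 CPM in PEP-619WW (12 and 11 of 13 detected). Monocyte and macrophage markers summed to 1038 against 2063 CPM and 1510 against 2374 CPM (10 and 12 of 13 detected), with Adgre1 at 0 in members of both libraries. Of these 13 markers 2 reached a mean of 50 CPM, Ccr2 among them, so the sums rest mostly on few genes. The others that carried Gzma or Gzmb had 2540 CPM in PEP-WT and 2533 CPM in PEP-619WW. Whether these sums measure myeloid RNA was not tested. CD4 T cell markers summed to 266 against 189 CPM and 315 against 207 CPM, and Cd4 itself was present in 6 and 8 members. Gamma delta and innate-like T cell markers summed to 217 against 108 CPM in PEP-WT and 159.9 against 106 CPM in PEP-619WW. Erythroid markers summed to 495 CPM in PEP-WT members and 30.3 in PEP-619WW members, against 3378 and 122 CPM in the others. Apart from the alternatives that leave out barcodes with such UMIs, the part of these transcripts in the results was not tested.

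Upstream sequences are shown for Xcl1 and Ifng, which are selecting genes, for Ccl3, the marker that the rule did not use, and for Ifit3 as an interferon-stimulated gene that was low in it. Each run is the 250 bases before the annotated start in RefSeq (GRCm38.p6), 5′ to 3′ on the gene's strand, with capitals marking matches on either strand to GGAAA, the core of NFAT motifs, in the first 3 and to the interferon-response pattern GAAANNGAAA in the last. The windows lie at chr1:164935523-164935772 (minus strand) for Xcl1, chr10:118440796-118441045 (plus strand) for Ifng, chr11:83649379-83649628 (minus strand) for Ccl3 and chr19:34583279-34583528 (plus strand) for Ifit3.
Xcl1: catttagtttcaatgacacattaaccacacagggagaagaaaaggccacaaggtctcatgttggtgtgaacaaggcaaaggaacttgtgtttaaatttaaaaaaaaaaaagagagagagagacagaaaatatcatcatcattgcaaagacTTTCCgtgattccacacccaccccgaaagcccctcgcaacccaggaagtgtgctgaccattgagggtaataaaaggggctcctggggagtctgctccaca
Ifng: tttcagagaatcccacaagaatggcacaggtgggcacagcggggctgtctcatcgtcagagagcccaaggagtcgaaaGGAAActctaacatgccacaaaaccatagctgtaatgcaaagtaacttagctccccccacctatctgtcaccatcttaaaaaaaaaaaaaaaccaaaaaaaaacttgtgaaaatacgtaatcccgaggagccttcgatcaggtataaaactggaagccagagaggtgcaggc
Ccl3: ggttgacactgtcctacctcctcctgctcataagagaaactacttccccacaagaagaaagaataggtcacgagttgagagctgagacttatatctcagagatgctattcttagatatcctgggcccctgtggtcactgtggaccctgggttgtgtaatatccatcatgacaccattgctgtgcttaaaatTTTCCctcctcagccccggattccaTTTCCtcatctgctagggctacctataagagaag
Ifit3: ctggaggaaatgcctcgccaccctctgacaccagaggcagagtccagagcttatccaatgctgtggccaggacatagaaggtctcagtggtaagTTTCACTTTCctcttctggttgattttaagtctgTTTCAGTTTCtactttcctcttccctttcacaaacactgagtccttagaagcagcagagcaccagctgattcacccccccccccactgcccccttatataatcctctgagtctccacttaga
The short GGAAA core was present in 55.6% of all 32851 such windows and in 23 of the 24 windows that matched the list of cytokines and chemokines, counted on both strands. It was present in 9 of 15 windows (60%) that matched the 15 genes named as highest in members. The 15 genes named as lowest also had it in 9 of 15 windows, and interferon-stimulated genes in 33 of 46. The longer GAAANNGAAA pattern was present in 2.98% of all windows and in 26 of the 46 windows of interferon-stimulated genes. A match describes the letters of the window only.

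The combination of selecting genes differed from barcode to barcode and between the genotypes. In PEP-WT, 48 members carried Ifng alone of the 3 genes, 6 Tnfrsf9 alone and 13 Xcl1 alone, 68 carried Ifng with Tnfrsf9, 13 Ifng with Xcl1, 14 Xcl1 with Tnfrsf9, and 20 all 3. In PEP-619WW the corresponding numbers were 76, 2, 0, 80, 6, 5 and 11. Ifng was thus present in 149 of 182 PEP-WT members (81.9%, exact 95% interval 75.5 to 87.2%) and in 173 of 180 PEP-619WW members (96.1%). No PEP-619WW member carried Xcl1 as the only gene of the 3. A count of 0 in 180 barcodes gives an exact upper limit of 2.03%. Intervals here and below cover counting error only, not differences between mice or libraries.

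**Figure D1:**
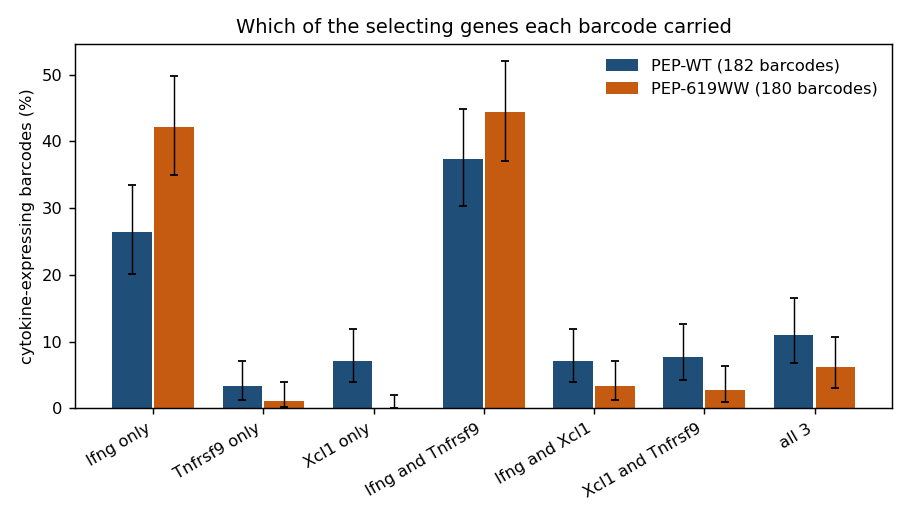
Percentage of cytokine-expressing barcodes (vertical axis) with each combination of Ifng, Tnfrsf9 and Xcl1 (horizontal axis) in PEP-WT (182 barcodes, blue) and PEP-619WW (180 barcodes, orange). Bars are shares and error bars exact 95% binomial intervals. Ifng with or without Tnfrsf9 accounted for most members of both libraries, and the share of every combination with Xcl1 was lower in PEP-619WW.

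The UMIs of the 3 genes were unevenly spread over members. In PEP-WT, 43 members had exactly 3 of these UMIs, 31 had 4, 59 had 5 to 11 and 49 had 12 to 155. In PEP-619WW the numbers were 39, 21, 63 and 57, with a maximum of 102. Just outside the rule, 77 PEP-WT and 47 PEP-619WW barcodes had 2 such UMIs. Barcodes at exactly 3 UMIs held 369 CPM of Ccl3 in PEP-WT and 192 CPM in PEP-619WW, those at 2 UMIs held 142 and 72.4 CPM, and the same step for Irf8 was 152 against 91.8 CPM and 124 against 68.0 CPM. Other genes did not share this step in both libraries. Pdcd1 was at 128 against 93.9 CPM in PEP-WT and 104 against 103 CPM in PEP-619WW. Mki67 was at 390 against 288 CPM and 269 against 305 CPM, and Cd69 at 53.4 against 177 CPM and 157 against 89.9 CPM. Xcl1 was concentrated in few barcodes, since 128 of its 588 UMIs in PEP-WT and 51 of 182 in PEP-619WW came from 1 barcode each, and 1 PEP-619WW barcode held 63 of the 323 Tnfrsf9 UMIs. Summed over members, Xcl1 was at 299 CPM in PEP-WT and 84.8 CPM in PEP-619WW, Ifng at 552 and 689 CPM, and Tnfrsf9 at 180.1 and 151 CPM.

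Members made up 19.6% (exact 95% interval 17.1 to 22.3%) of the 930 gated CD8 barcodes of PEP-WT and 30.9% (27.2 to 34.9%) of the 582 of PEP-619WW. The difference was 11.4 percentage points (Newcombe 95% interval 6.86 to 15.9). The gated barcodes that were not members differed in make-up between the libraries. Gzma or Gzmb was carried by 453 of 748 in PEP-WT and 344 of 402 in PEP-619WW, and Tcf7 by 39.0% and 20.1%. The part of this make-up in the share difference, and in genotype ratios of the others, was not tested. The gated barcodes of PEP-WT were shallower, with a median of 4521 UMIs against 6838. Barcodes were then compared at an equal depth of 3000 UMIs per barcode, taken in 1 random draw. For it, 200 shallower barcodes of PEP-WT and 40 of PEP-619WW were not used. The share with any UMI of the 3 genes was 40.4% and 43.2%, a difference of 2.76 points with an interval from -2.70 to 8.23. Over all possible draws the expected shares were 38.3% and 42.5%, and the intervals do not cover the draw. The share with any such UMI before thinning was 43.7% and 58.6%, a difference of 14.9 points. The genes moved differently at equal depth. Ifng was found in 26.3% (PEP-WT) and 35.2% (PEP-619WW) after thinning, and in 31.8% and 50.7% before. Xcl1 was found in 8.90% and 3.51% after thinning and in 10.1% and 4.81% before. The thinned difference was 8.94 points for Ifng (3.82 to 14.1) and -5.40 points for Xcl1 (-8.00 to -2.74). Tnfrsf9 was at 12.1% and 11.3% after thinning (17.4% and 24.6% before), and its thinned difference of -0.80 points had an interval from -4.31 to 2.85. Ccl4, which the rule did not use, was found in 28.5% and 36.5% of thinned barcodes (32.8% and 44.8% before), a difference of 8.04 points (2.84 to 13.2), and Ccl3 in 21.9% and 25.6% (24.8% and 33.8% before), a difference of 3.73 points (-0.974 to 8.51). In B cell barcodes the thinned shares were 0.343% and 0.664% for Ifng, 0.137% and 0.111% for Xcl1, 0.377% and 0.387% for Tnfrsf9, 1.13% and 1.66% for Ccl3 and 2.26% and 3.04% for Ccl4, at median depths of 2725 and 3402 UMIs before thinning. Activated B cells can express Ccl3 and Ccl4, so their shares are no clean background for these genes.

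Compared with the other gated CD8 barcodes, members had higher levels of Ccl3, Ccl4 and Nr4a2 and of the cell cycle gene Cdk1, and lower levels of Il7r, S1pr1 and Klf2 and of the interferon-stimulated genes Ifit3 and Ifi213. Of 2723 genes with a mean of at least 50 CPM, 13 (0.477%) were at least 2-fold higher in members of both libraries and 16 (0.588%) at least 2-fold lower. The median log2 ratio of all these genes was 0.10 in PEP-WT and 0.05 in PEP-619WW. Because the members were chosen on 3 activation genes, these counts describe the set. The comparison with the 453 PEP-WT and 344 PEP-619WW others that carried Gzma or Gzmb (granzyme transcripts that naive cells lack) gave 10 higher genes (0.367%) and 14 lower genes (0.514%). Taking as members the barcodes with any UMI of the 3 genes after thinning to equal depth gave 7 higher and 3 lower genes.

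The inflammatory chemokines Ccl3 and Ccl4 were among the highest genes of the set. Ccl3 (chr11:83647844-83649355, minus strand, GRCm38) was at 699 CPM in PEP-WT members and 88.9 CPM in the others, and at 899 and 63.4 CPM in PEP-619WW, log2 ratios of 2.98 (95% interval 2.80 to 3.16) and 3.82 (3.60 to 4.05). Ccl4 (chr11:83662584-83664683, plus strand), its neighbor on chromosome 11, was at 1331 against 243 CPM and 1916 against 183 CPM, log2 ratios of 2.45 and 3.39. Members were above the others in both libraries for both genes, and 86 PEP-WT and 101 PEP-619WW members carried both. Ccl5, the chemokine most typical of effector and memory CD8 T cells, went the other way in CPM, at 5284 against 11012 CPM in PEP-WT and 8170.3 against 14181 CPM in PEP-619WW, log2 ratios of -1.06 and -0.80. It was however detected in more of the deeper members, in 90.1% against 72.7% in PEP-WT and 97.2% against 91.5% in PEP-619WW. Median Ccl5 UMIs per barcode were 35 against 24 and 81 against 76. Of the 27 listed cytokines and chemokines outside the rule, 5 passed the level filter. Ccl3 and Ccl4 were the 2 that were at least 2-fold higher, where 0.477% of all genes were. Tnf was detected in 8 PEP-WT and 20 PEP-619WW members, Csf2 in 6 and 4, and Ccl9 in none of either library.

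Some transcription factors and feedback genes that T cell receptor signals induce were higher as well. Nr4a2, an orphan nuclear receptor, was at 119 CPM in PEP-WT members against 29.9, and at 142 CPM in PEP-619WW against 20.7, log2 ratios of 1.99 and 2.78. Rgs16, a regulator of chemokine receptor signaling, was at 82.4 against 9.60 CPM and 124 against 16.0 CPM (log2 2.94 in PEP-619WW, the smaller of the ratios). Irf8, a transcription factor that T cells induce after antigen encounter, was at 179 against 73.0 CPM and 149 against 68.8 CPM (log2 1.29 and 1.11). Against Cd3e Cd8b1 barcodes without any exclusion, the ratio of Irf8 in the library nearer to 0 turned to -0.13. B cells and myeloid cells are also known to express Irf8. Nrgn, which encodes a calmodulin-binding protein, was at 277 against 40.9 CPM and 250.3 against 29.9 CPM (log2 2.76 and 3.06).

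Of the 42 genes in this list, 19 passed the filter. Of these, 3 were called higher (Nr4a2, Rgs16 and Irf8), where 0.477% of all genes were, and 0 lower. The median log2 ratio of the 19 was 0.48 in PEP-WT and 0.66 in PEP-619WW, against 0.10 and 0.05 over all genes. Genes below the filter were not uniform. Nr4a3 had log2 ratios of 2.25 and 1.86, whereas Nr4a1 (Nur77) was at 21.4 against 19.5 CPM in PEP-WT, a ratio of 0.13 with an interval from -0.45 to 0.70, and at 62.9 against 17.1 CPM in PEP-619WW, a ratio of 1.88 (1.39 to 2.39). Egr1 behaved like Nr4a1, with ratios of 0.14 and 1.46. Genes of the AP-1 and heat shock families, which tissue handling induces, had medians of -0.22 and 0.12. Costimulatory receptors and activation surface molecules outside the rule had medians of -0.20 and 0.05, and 0 of the 14 that passed the filter were called. They summed to 3257 CPM in PEP-WT members against 4417, and to 3898 against 4565 CPM in PEP-619WW. The activation marker Cd69 was found in 36.8% of PEP-WT members and 34.4% of the others. In PEP-619WW these shares were 37.8% and 34.3%. Members were deeper, which favors detection. In CPM, Cd69 in PEP-WT was at 124 in gated barcodes with 0 UMIs of the selecting genes and at 63.5 in those with 12 or more. The corresponding PEP-619WW levels were 98.5 and 120 CPM.

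**Figure D2:**
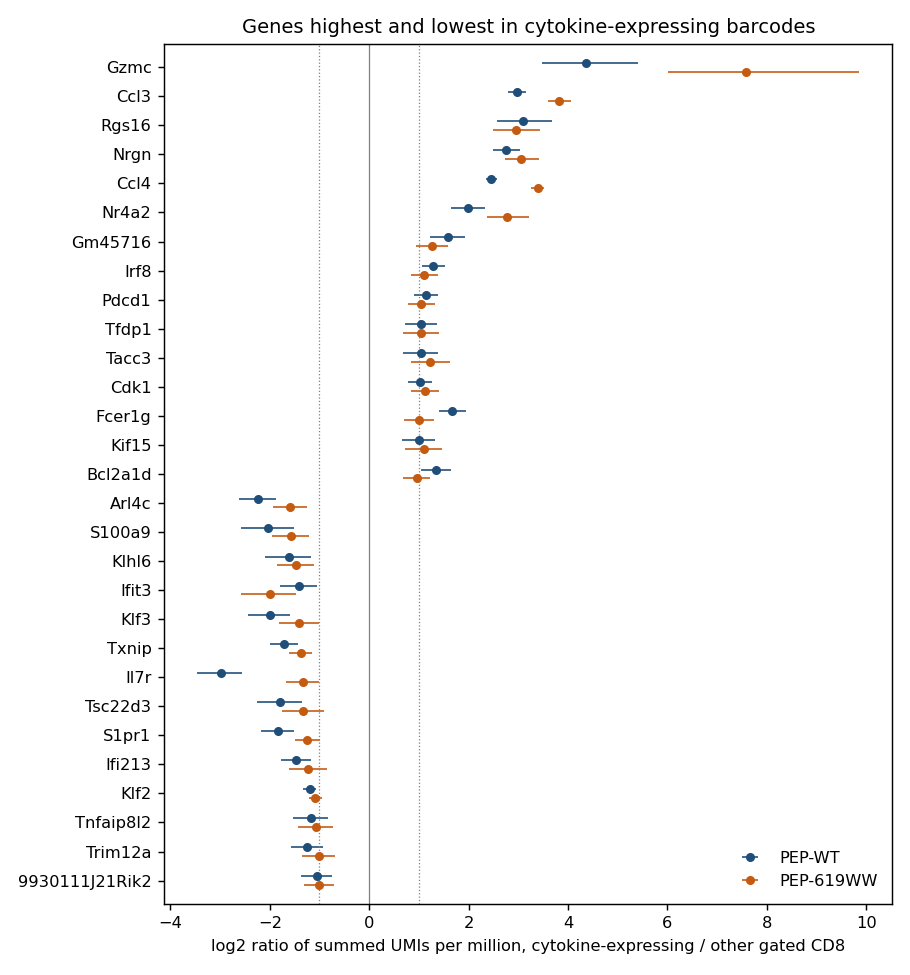
Log2 ratio of summed CPM in cytokine-expressing over other gated CD8 barcodes (horizontal axis) for the 15 highest and 14 of the 15 lowest genes (vertical axis), per library, with exact 95% counting intervals. Dotted lines mark 2-fold. Ccl3, Ccl4, Rgs16, Nrgn and Nr4a2 are well above 2-fold in both libraries, and the PEP-619WW value of Gzmc rests on 1 barcode.

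Of the inhibitory receptors, Pdcd1 was higher in both libraries. Pdcd1, which encodes PD-1, was at 155 CPM against 70.2 in PEP-WT and at 138 against 67.0 in PEP-619WW (log2 1.14 and 1.05). It was present in 110 members of each library. Lag3 had log2 ratios of 0.84 and 0.52, Havcr2 (TIM-3) of 1.00 and 0.81, Ctla4 of 0.68 and 1.09, and Tox, a transcription factor of chronically stimulated T cells, of 0.95 and 0.66. Of 14 listed genes 6 passed the filter. Pdcd1 was the 1 gene at or above 2-fold in both libraries, where 0.477% of all genes were. The median ratio was 0.90 in PEP-WT and 0.73 in PEP-619WW.

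Cytotoxic genes were split. Gzmb, the effector granzyme, was at 1851 CPM against 1156 in PEP-WT and 2442 against 1591 in PEP-619WW (log2 0.68 and 0.62), and Prf1, which encodes perforin, at 359 against 153 CPM and 273 against 197 CPM (log2 1.23 and 0.47). Gzma was lower, at 695 against 1347 CPM and 401 against 867 CPM (log2 -0.96 and -1.11). It was detected in 37.9% of PEP-WT members against 31.3% of the others, and in 28.9% against 33.1% in PEP-619WW. Nkg7, a granule membrane gene, hardly differed, with ratios of 0.05 and 0.07. Of the 23 of 27 listed cytotoxic genes that passed the filter, 0 were called in either direction.

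Gzmc, a granzyme of strongly stimulated T cells, had the largest ratio but the narrowest base. It was found in 13 PEP-WT members with 122 UMIs in all, at 62.1 CPM against 3.02 CPM in the others. In PEP-619WW it was found in 5 members, and 433 of the 438 UMIs came from 1 barcode. Its level of 204 CPM in PEP-619WW members is therefore the value of that barcode. Fcer1g, the signaling chain of Fc and some natural killer receptors, was at 163 against 51.0 CPM and 110 against 54.5 CPM (log2 1.67 and 1.01), spread over 65 and 54 members. Against Cd3e Cd8b1 barcodes without exclusions its ratio in the nearer library was -1.58.

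Lists of proliferation and growth genes had medians above those of all genes (0.10 in PEP-WT and 0.05 in PEP-619WW), but 1 of their genes was called. Cdk1, the mitotic kinase, was at 159 against 78.2 CPM in PEP-WT and 133 against 61.3 CPM in PEP-619WW (log2 1.03 and 1.12). Mki67 had ratios of 0.57 and 0.75 and Top2a of 0.54 and 1.00, and each was present in more than 90 members of each library. Tfdp1, a partner of E2F factors, Tacc3, a spindle protein, and Kif15, a mitotic kinesin, were also among the highest 15 genes, with ratios between 1.00 and 1.23. The median over S phase genes was 0.79 and 0.75 (17 of 22 passed the filter), over G2 and M phase genes 0.76 and 0.80 (19 of 27), over ribosome biogenesis and MYC target genes 0.81 and 0.50 (22 of 30) and over glycolysis genes 0.56 and 0.41 (12 of 18). Cdk1 was the 1 gene of these 4 lists called higher, where 0.477% of all genes were, and 0 were called lower.

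Several stem-like, naive and homing genes were lower in members. Il7r, the receptor for the survival cytokine IL-7, was at 22.9 CPM against 182 in PEP-WT and 47.1 against 119 in PEP-619WW (log2 -2.99 and -1.34). S1pr1, the receptor that guides egress from lymphoid tissue, had ratios of -1.83 and -1.24, and Klf2, the transcription factor that maintains S1pr1, of -1.20 and -1.09. Members were below the others in both libraries for these 3 genes and for Lef1 (-1.58 and -1.01). These are 4 of the 5 genes called lower among the 11 of this list that passed the filter. Of all genes 0.588% were called lower. Tcf7 was lower too, with ratios of -1.72 and -0.94. Outside that list, Arl4c, Klf3, Txnip, Tsc22d3 and Klhl6 had ratios from -1.33 to -2.24, and Txnip (thioredoxin-interacting protein, which restrains glucose uptake) was at 60.5 against 198 CPM and 91.4 against 238 CPM. S100a9, a neutrophil transcript, was at 17.8 against 72.7 CPM and 36.4 against 108 CPM, and the neutrophil marker list, S100a9 included, summed to 37.1 against 140 CPM and 86.2 against 232 CPM. The part of neutrophil RNA in the S100a9 value was not tested.

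Against the granzyme-positive others the homing genes were still lower, with a list median of -0.78 in PEP-WT and -0.55 in PEP-619WW instead of -1.20 and -0.93. In that comparison 3 of them were called lower, where 0.514% of all genes were.

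Of the listed interferon-stimulated genes, Ifit3 and Ifi213 were called lower in members. Ifit3, an antiviral effector whose upstream window with its 2 matches is printed above, was at 38.7 CPM against 103 in PEP-WT and at 15.8 against 63.4 in PEP-619WW (log2 -1.42 in PEP-WT, the ratio nearer to 0). Ifi213, a DNA sensor of the Ifi200 family, had ratios of -1.47 and -1.23. The median over the 27 of 46 listed genes that passed the filter was -0.93 and -0.72. Of these, 2 were called lower, where 0.588% of all genes were, and 0 higher. Isg15, a ubiquitin-like modifier, was at 168 against 298 CPM and at 89.0 against 123 CPM.

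Within the gated barcodes the levels of several of these genes followed the UMIs of the selecting genes. The rule used the same UMIs, so this grading is a description and no further support. Median depth rose along it, from 3541.5 UMIs at 0 such UMIs to 10373 at 12 or more in PEP-WT. In PEP-619WW it rose from 5607 to 12051 UMIs, and the part of depth in the levels was not tested. From barcodes with 0 such UMIs to those with 12 or more, Ccl3 went from 60.6 to 1102 CPM in PEP-WT and from 39.4 to 1530.1 CPM in PEP-619WW. Ccl4 went from 215 to 1739 CPM and from 82.9 to 3255 CPM. Irf8 went from 52.9 to 227 CPM and from 52.3 to 196 CPM, and Pdcd1 from 46.1 to 224 CPM and from 40.1 to 156 CPM. Ccl5 declined from 11821 to 3906 CPM and from 15139 to 6837 CPM, and Gzma from 1431 to 555 CPM and from 1008 to 309 CPM. Nr4a1 separated the libraries, at 17.6 CPM with 0 UMIs and 25.4 CPM with 12 or more in PEP-WT, and at 9.51 and 84.5 CPM in PEP-619WW. Mki67 went from 161 to 243 CPM in PEP-WT, with higher values between, and from 193 to 390.1 CPM in PEP-619WW.

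**Figure D3:**
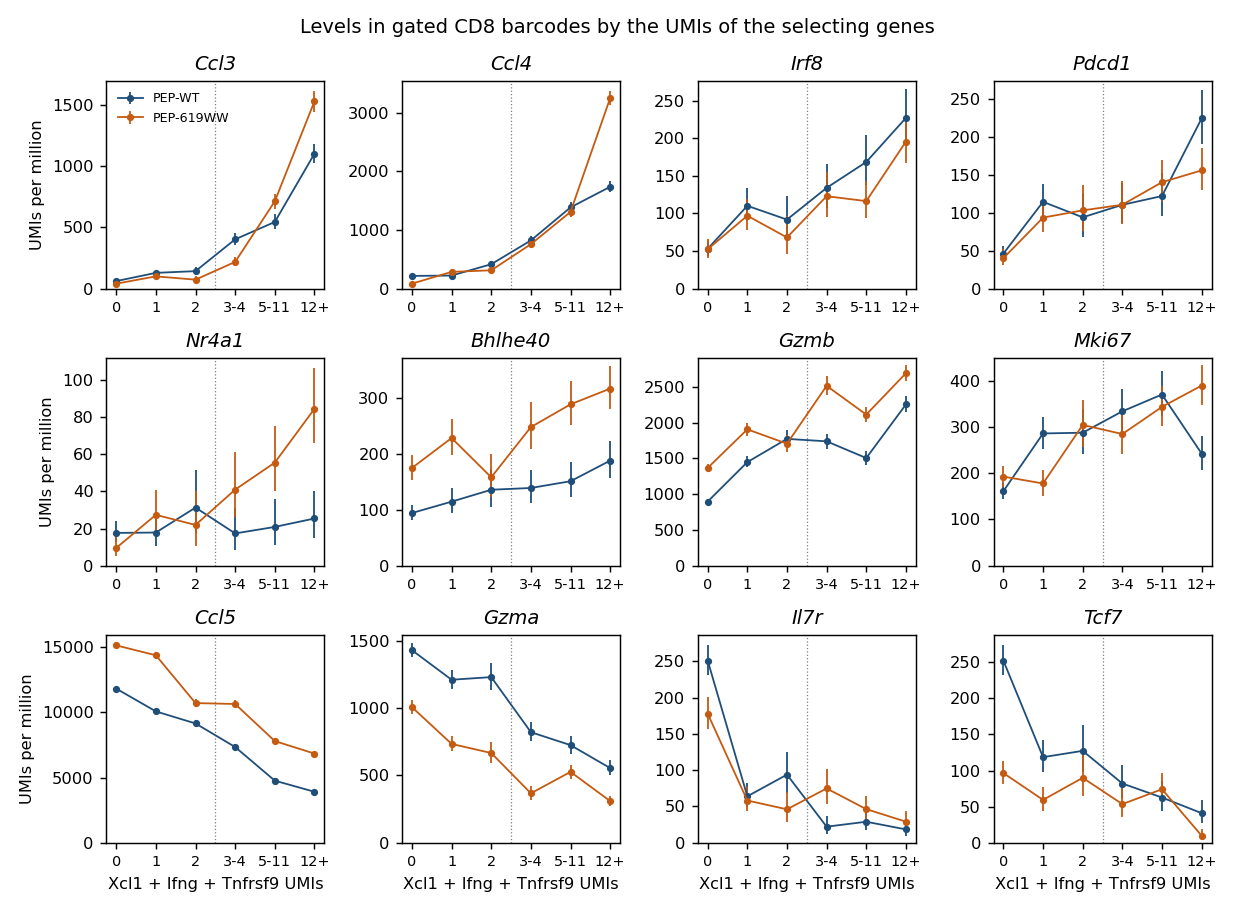
Summed CPM of 12 genes (vertical axes, from 0) in gated CD8 barcodes grouped by their Xcl1, Ifng and Tnfrsf9 UMIs (horizontal axis), for PEP-WT (blue) and PEP-619WW (orange). Points carry exact 95% Poisson intervals, and the dotted line separates members, on its right, from the others. Ccl3 and Ccl4 are highest at 12 or more UMIs in both libraries, while Ccl5 is lowest there. Barcodes with 12 or more such UMIs were also deeper than those with 0.

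Members with Xcl1 differed from members without it. This division also uses measured values and is a description, over 60 against 122 barcodes in PEP-WT and 22 against 158 in PEP-619WW, with median depths of 8323 and 8486 UMIs in PEP-WT and 14329 and 9909.5 in PEP-619WW. Xcl1 is itself a selecting gene. Members without it had to reach 3 UMIs of Ifng and Tnfrsf9, whereas 13 PEP-WT members with it carried neither. The part of this requirement in the values below was not tested. Tcf7 was found in 34 of the 60 PEP-WT members with Xcl1 and 8 of the 122 without, and in 8 of 22 and 11 of 158 in PEP-619WW. Its level was 145 against 17.0 CPM and 152 against 23.3 CPM. Id3, a transcriptional regulator of memory precursors, had log2 ratios of 4.01 and 3.92, Crtam, an adhesion receptor of activated CD8 T cells, of 3.31 and 2.91, Slamf6, a surface marker of stem-like cells, of 2.16 and 1.04, and Eomes of 1.60 and 1.31. Both libraries showed these 5 genes higher with Xcl1. The pairing of Xcl1 with Tcf7 was not particular to members. Of the others with Xcl1, 31 of 34 in PEP-WT and 4 of 6 in PEP-619WW carried Tcf7. Among all others Tcf7 was found in 292 of 748 and 81 of 402. Gzma or Gzmb was found in 2 of those 34 PEP-WT barcodes and 4 of those 6 PEP-619WW barcodes.

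The effector transcripts ran opposite. Gzmb was found in 26 of 60 PEP-WT members with Xcl1 and 120 of 122 without, and in 13 of 22 and 154 of 158 in PEP-619WW, and its summed level had a log2 ratio of -1.41 in each. Ccl5 had ratios of -2.13 and -2.26, Prf1 of -1.52 and -1.27, Gzma of -1.45 and -3.63, Havcr2 of -1.14 and -1.58 and Lgals3 (galectin-3) of -1.20 and -2.18. Ccl3 and Ccl4 were also lower with Xcl1, with ratios of -0.59 and -0.61 for Ccl3 and of -0.61 and -1.06 for Ccl4. Tox was present in both kinds of member, at 190 against 177 CPM and 192 against 155 CPM. Pdcd1 was at 145 against 160.4 CPM in PEP-WT and 69.9 against 151 CPM in PEP-619WW.

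**Figure D4:**
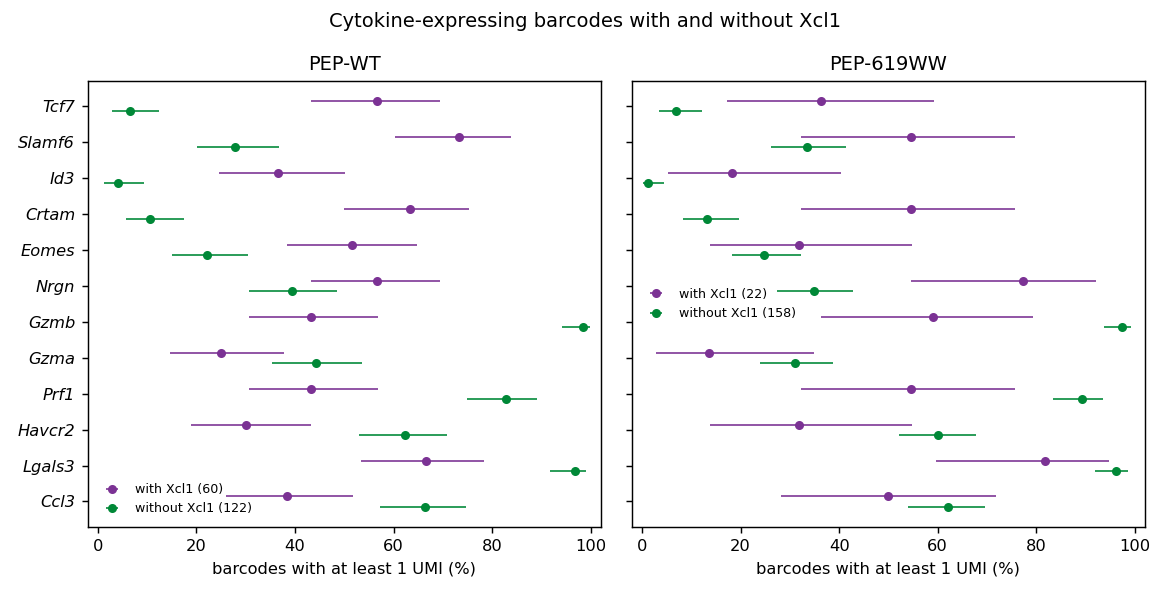
Percentage of cytokine-expressing barcodes with at least 1 UMI of each gene (horizontal axis) among members with Xcl1 (purple) and without (green), for PEP-WT (left) and PEP-619WW (right), with exact 95% binomial intervals. Tcf7, Slamf6, Id3 and Crtam were found more often with Xcl1, and Gzmb, Prf1 and Havcr2 more often without it, in both libraries.

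Between the genotypes, members of PEP-619WW had higher Ccr2, Itgax, Klrd1 and Il18r1 and lower Ifi27l2a, Irf7 and Isg15. Of 2747 genes with a mean of at least 50 CPM, 9 (0.328%) were at least 2-fold higher in PEP-619WW members and 4 (0.146%) at least 2-fold lower, with a median log2 ratio of -0.02. With 1 library per genotype these ratios have no replicate check. Ccr2, a chemokine receptor of inflammatory migration, was at 34.6 CPM in PEP-WT and 97.9 CPM in PEP-619WW members, a log2 ratio of 1.50 (1.10 to 1.92), and was found in 39 and 82 members. Itgax (CD11c), which activated CD8 T cells can express, was at 41.7 and 107 CPM (log2 1.36), in 56 and 109 members. Ccr2 is also on the list of monocyte and macrophage markers, and Itgax on that of dendritic cell markers. In PEP-WT and PEP-619WW members the first list summed to 1038 and 1510 CPM and the second to 328 and 293 CPM. Of the 13 genes of the first list 2 passed the filter, Ccr2 among them. The part of RNA from such cells in the ratios of Ccr2 and Itgax was not tested. Klrd1 (CD94), a natural killer receptor of effector CD8 T cells, was at 182 and 362 CPM (log2 0.99), Il18r1, the IL-18 receptor chain, at 186 and 341 CPM (0.87), and Ahnak, a scaffold protein of calcium signaling, at 323 and 605 CPM (0.90). The long noncoding RNA Neat1 (1.18), AA467197 (1.18), Hilpda, a lipid droplet protein (1.17), Crot, a peroxisomal acyltransferase (1.14), and Dennd1b (1.11) completed this group.

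The same genes were also higher in the other gated CD8 barcodes of PEP-619WW, with log2 ratios of 1.03 for Ccr2, 0.87 for Itgax, 0.97 for Il18r1, 0.91 for Ahnak, 1.39 for AA467197, 0.66 for Neat1 and 0.41 for Klrd1, and the difference between the sets of barcodes was not tested. Gzmc and Cd7, also among the highest, had ratios below 0 in the others, of -1.50 (-3.98 to 0.42) and -0.99 (-1.42 to -0.58). Single barcodes held much of their UMIs in PEP-619WW members. The Gzmc ratio of 1.72 became -4.35 without the 1 top barcode of each library. Cd7, a T cell surface protein, had a ratio of 1.42, with 71 of its 161 PEP-619WW UMIs in 1 barcode, and of 0.77 without the top barcodes.

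Lower in PEP-619WW members were Ifi27l2a, an interferon-induced mitochondrial protein, at 2090.0 CPM in PEP-WT and 919 CPM in PEP-619WW (log2 -1.19, interval -1.26 to -1.11), Irf7, the interferon-induced factor that amplifies the response, at 78.8 and 39.1 CPM (-1.01), Isg15 at 168 and 89.0 CPM (-0.92) and Ifi35 at 105 and 53.6 CPM (-0.97). The other gated CD8 barcodes had ratios of -1.04, -1.10, -1.27 and -0.64 for the same genes. Ifitm3, an antiviral membrane protein, was at 92.6 and 44.3 CPM in members (-1.06) but at 65.6 and 86.6 CPM in the others (0.40). It was found in 62 and 37 members. Over the 19 interferon-stimulated genes that passed the filter the median was -0.19 in members and -0.52 in the others, and 5 of 19 were above 0 in members. Ifi27l2a and Irf7 were the 2 called lower, where 0.146% of all genes were. Gzma was at 695 and 401 CPM (-0.79), and at -0.64 in the others.

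Blvrb, an enzyme of heme breakdown, had a ratio of -2.48, with 81 of its 184 PEP-WT UMIs in 1 barcode and a ratio of -1.92 without the top barcodes. Prdx2, an antioxidant enzyme abundant in red cells, was at 337 and 192 CPM (-0.81). The hemoglobin transcript Hbb-bs was found in 107 PEP-WT members at 255 CPM and in 25 PEP-619WW members at 12.1 CPM, and the part of red cell RNA in these values was not tested. Cst3 (-0.89) and the class II genes H2-Aa (-0.97) and H2-Eb1 (-0.96) are expressed by antigen-presenting cells. In PEP-619WW members 51 of 91 H2-Aa UMIs and 52 of 95 H2-Eb1 UMIs came from single barcodes, and the ratios were -1.94 and -1.92 without the top barcodes. Without barcodes that held a hemoglobin UMI, which left 40 PEP-WT and 137 PEP-619WW members, H2-Eb1 was at 0.069. Npm1, a nucleolar protein, was at 2072 and 1365 CPM (-0.60), and the ribosome biogenesis and MYC target list had a median of -0.45 in members, with 0 of 23 genes above 0, against -0.07 in the others.

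**Figure D5:**
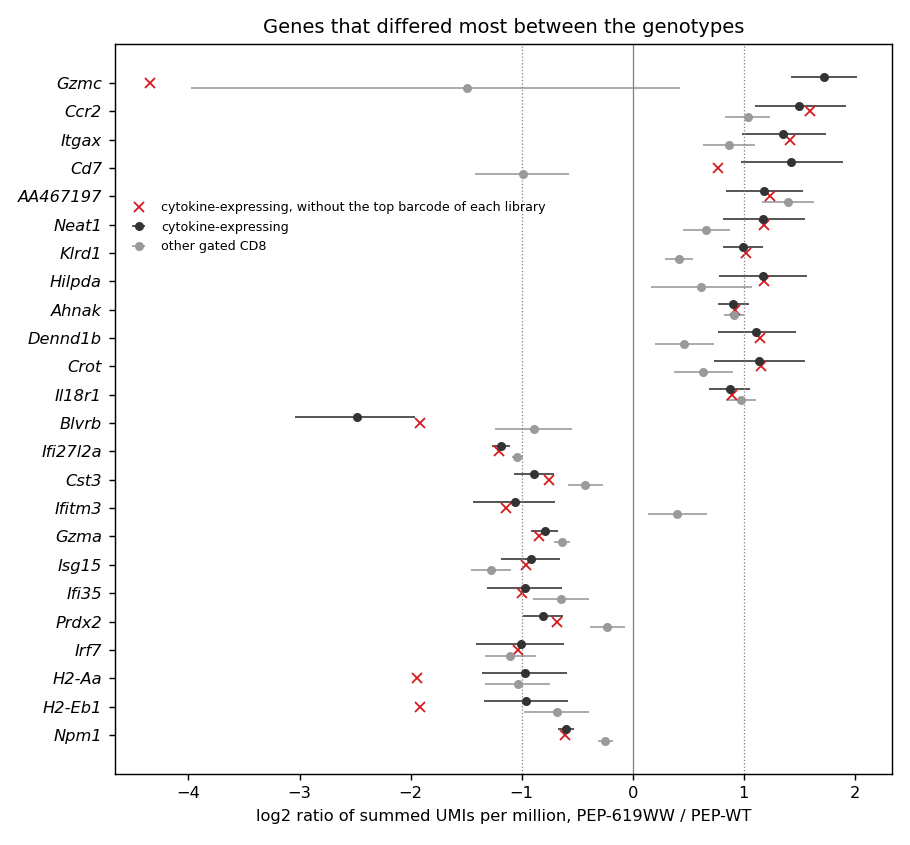
Log2 ratio of summed CPM in PEP-619WW over PEP-WT (horizontal axis) for the 12 highest and 12 lowest genes (vertical axis), in cytokine-expressing barcodes (black) and other gated CD8 barcodes (grey), with exact 95% counting intervals. Red crosses give the members' value without the top barcode of each library, which moves Gzmc from 1.72 to -4.35, and dotted lines mark 2-fold.

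Ccl3 and Ccl4 differed by less than 2-fold between the genotypes, whereas Nr4a1 and Egr1, which were below the level filter, differed by more. Ccl3 was at 699 CPM in PEP-WT and 899 CPM in PEP-619WW members, a log2 ratio of 0.36 (0.26 to 0.46), and Ccl4 at 1331 and 1916 CPM, a ratio of 0.53 (0.45 to 0.60). In the other gated barcodes the ratios were -0.49 and -0.41. Nr4a1 had a ratio of 1.56 in members (1.05 to 2.09), with 42 UMIs in 32 PEP-WT and 135 UMIs in 53 PEP-619WW members, and of -0.19 in the others. Egr1 had a ratio of 1.02 in members (0.57 to 1.47), with 62 and 137 UMIs, and of -0.30 in the others. Nr4a2, Nr4a3 and Myc did not follow them. Nr4a2 had a ratio of 0.26 in members (0.01 to 0.51). Nr4a3 was at 20.9 CPM in PEP-WT and 16.1 CPM in PEP-619WW members without Xcl1, and at 20.7 and 20.4 CPM in those with it. Myc was at 56.6 and 57.7 CPM without Xcl1, and at 90.3 and 23.3 CPM with it, the last on 8 UMIs. Bhlhe40, a transcription factor that supports Ifng expression, had ratios of 0.85 in members and 0.85 in the others. Pdcd1 was at -0.16, with an interval from -0.40 to 0.07, and Irf8 at -0.26. Over the T cell receptor-induced list the median was 0.29 in members and 0.03 in the others, with 15 of 20 genes above 0 and 0 called. The AP-1 and heat shock genes, which tissue handling induces, had medians of 0.34 and -0.20, with 4 of 6 above 0 in members. The part of handling in the ratios of Nr4a1, Egr1 and the receptor-induced list was not tested. Over T cell receptor signaling genes the median was 0.14 and 0.04, and 0 of 28 were called. Ptpn22 itself, whose UMIs do not read the substituted codon and so do not check the genotype, was at 206 CPM in PEP-WT and 271 CPM in PEP-619WW members (0.40, interval 0.22 to 0.59) and had a ratio of 0.19 in the others.

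The composition of the members by Xcl1 differed between the libraries, so the genotype ratios were also computed within members without Xcl1, 122 in PEP-WT and 158 in PEP-619WW. Ccr2 was at 43.4 and 112 CPM there (log2 1.37), Itgax at 57.3 and 118 CPM (1.04), Klrd1 at 205 and 398 CPM (0.96) and Ifi27l2a at 1809 and 877 CPM (-1.04). Isg15 moved closer to 0, at 130.2 and 96.5 CPM (-0.43, interval -0.75 to -0.12), while Gzma was at -0.92. Of the 9 higher genes, AA467197 (0.92), Crot (0.98) and Dennd1b (0.96) were below 2-fold there, and so were Irf7 (-0.66) and Ifitm3 (-0.87) of the 4 lower genes. Among the 60 and 22 members with Xcl1, Isg15 had 163 UMIs in PEP-WT and 17 in PEP-619WW, a log2 ratio of -2.28.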

How the data were processed

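Splenocytes were profiled by 10x Genomics 3′ single-cell RNA sequencing. The authors deposited raw UMI counts per gene and barcode, made with Cell Ranger on mm10 (version 6.0.0 per the submitters' processing notes); total counts were 77916082 in PEP-WT and 56745578 in PEP-619WW. Of 32285 gene rows, 32158 were matched to symbols, and 26 rows that shared a symbol were merged. No doublet caller was run and doublets were kept. UMIs were summed over barcodes, divided by their summed total and expressed per 1000000 UMIs (CPM). With 1 library per genotype no test was made. Ratios carry exact conditional 95% intervals, levels exact Poisson, shares Clopper-Pearson and differences Newcombe intervals, for counting error only (Python 3.11.15, numpy 2.4.6, scipy 1.17.1). Ratios where a set had 0 UMIs used a floor of 3 UMIs. A gene was called at 2-fold or more, in both libraries for members against others, if its mean reached 50 CPM. Named genes were those of the fixed lists and the 15 highest and 15 lowest by the smaller library ratio, and the 12 highest and 12 lowest by the interval bound nearest 0 between genotypes. Rule, immunoglobulin, hemoglobin, mitochondrial and receptor V genes were not eligible. Members and lists were chosen with earlier results of these data known. On simulated counts for the comparison of members with others (2707 genes), 50 of 50 genes raised by 1.5 log2 units and 49 of 50 lowered by 1.5 were called, and 0 of 2507 unchanged genes. These counts were Poisson draws from the summed profile of the others, without variation between barcodes and without selection of members. They check the arithmetic only and cannot show how many calls in the data are false. Alternatives changed the UMI cutoff, depth, comparison set, exclusions, scaling and filter. Gene positions are from the GRCm38 annotation. The second deposited pair of libraries, whose barcode numbers (9539 and 11029) are the cell numbers in the methods, was used only as an alternative. 1 gene that the naming rule selected is not reported here.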

Additional observations from a re-analysis of the deposited data

Results flagged for a closer look

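A second pair of libraries was deposited with the same labels and was not used for the comparisons above. Its PEP-619WW library held 62 cytokine-expressing barcodes among 287 gated CD8 barcodes (21.6%, exact 95% interval 17.0 to 26.8%), and its PEP-WT library 1 among 10, too few for a genotype comparison. In the PEP-619WW library the members had a median of 10669.5 UMIs and the others 3012. All 15 genes named as highest were above 0 there and 11 were at least 2-fold higher, against 7.31% of all 2723 genes, and 14 of the 15 named as lowest were below 0 and 13 at least 2-fold lower, against 5.51%. The share of all genes on each side of 0 was not counted. Members there were chosen by the same rule, but their selecting UMIs were made up differently. They held 340 Tnfrsf9, 131 Xcl1 and 109 Ifng UMIs, whereas first-run PEP-619WW members held 323, 182 and 1479. Nr4a2 was at 122 against 10.8 CPM, Cdk1 at 156 against 26.3 CPM and Klf2 at 29.9 against 328 CPM. Ccl3 and Ccl4 differed less than in the first run, at 411 against 257 CPM and 965 against 570.2 CPM. Pdcd1 (log2 0.49) and Fcer1g (0.33, interval -0.09 to 0.75) were also below 2-fold. Gzmc was at 126 against 5.98 CPM. S100a9 was the exception among the lowest genes, at 85.8 against 59.8 CPM. Y-linked genes summed to 160.2 CPM and Xist to 0.090 CPM over this library, whereas the first-run libraries had Xist at 826 and 803 CPM and almost no Y-linked UMIs. The second PEP-WT library held both, with Xist at 261 CPM and Y-linked genes at 69.4 CPM. The PEP-619WW libraries of the 2 pairs thus had transcripts of opposite sex. The second PEP-619WW library is therefore not a repeat on the same pool of mice. Why the runs differ in other ways was not tested.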

How the results depend on the processing

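At equal depth members were taken as barcodes with at least 1 UMI after thinning to 3000 UMIs, so depth and cutoff changed together. The share difference between genotypes of 11.4 points was 2.76 with this change of depth and cutoff, in 1 random draw. Over all possible draws the expected shares were 38.3% in PEP-WT and 42.5% in PEP-619WW. The difference was 19.0 points without barcodes holding a hemoglobin UMI, an alternative added after seeing the data. The 13 genes higher in members became 7 with thinning and that cutoff, 8 without barcodes over the 95th percentile of UMIs, 8 with the median of gene ratios as scale, 29 with the mean of per-barcode CPM, 22 with a 20 CPM filter and 157 with none. The 16 lower genes became 3 with thinning and that cutoff, 70 against others without exclusions, 8 against others of like depth, 28 without any B cell or myeloid UMI, 10 without the deepest barcodes, 36 with a 20 CPM filter and 224 with none. The 9 genes higher in PEP-619WW became 5 and 14 with cutoffs of 2 and 5 UMIs, 3 with thinning and that cutoff, 37 without B cell or myeloid UMIs, 33 with a 20 CPM filter, 678 with none and 25 without hemoglobin UMIs. The 4 lower genes became 1 with a cutoff of 2 UMIs, 39 without B cell or myeloid UMIs, 8 without the deepest barcodes, 2 with fewer than 10 Mt2 UMIs, 7 with per-barcode CPM, 17 with a 20 CPM filter, 709 with none and 10 without hemoglobin UMIs. Leaving out B cell and myeloid UMIs kept 71 and 45 members. The causes of these shifts were not tested, except that the lower filters test more genes.

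Directions turned for Irf8 (-0.13) and Fcer1g (-1.58) against others without exclusions. Gzmc in members against others turned to -0.84 without the deepest barcodes, and its genotype ratio to -2.65 without B cell or myeloid UMIs, -4.76 with fewer than 10 Mt2 UMIs and -0.80 without hemoglobin UMIs. Without B cell or myeloid UMIs the genotype ratios of Cd7 (-0.60) and Gzma (0.10) turned, as did H2-Eb1 (0.069) without hemoglobin UMIs. The genotype difference in the share of members with Xcl1 was 25.8 points in the second run, where PEP-WT had 1 member. Of 449 values of named genes in members against others 341 stayed within their counting interval, as did 214 of 288 genotype values, and 87 of 90 list medians moved by at most 0.5 on the log2 scale. That tolerance is wide. The smallest of these medians was 0.50, for ribosome biogenesis and MYC target genes in PEP-619WW, so a median within it can have lost most of its size. Of the 90 list medians 0 changed direction. S100a9 could not be given without myeloid UMIs, since that alternative removes it. Gene counts were not run for the second run. No paired analysis was possible because each genotype had 1 library and no test was made.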
